A study of Mus musculus with 31 samples.

Results

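The genes described here are 9 markers of resident-type macrophages, of 39017 genes in the deposited count table of mouse breast tumours: Mrc1, Cd163, Stab1, Mgl2, Clec10a, Lyve1, Folr2, Retnla and Ccl24. They were taken by gene symbol, as a set chosen with earlier results of these data known. All 9 passed the low-count filter in both tumour models. Messenger RNA was sequenced from 31 libraries of orthotopic tumours in syngeneic mice, in 2 models. The 4T1 tumours grew in BALBc mice and the MT tumours in FVB mice, per the series design, and all libraries carry the genotype tag WT. Each model had 4 arms: saline with PBS (called control here), saline with phenformin, poly I:C with PBS (called poly I:C) and poly I:C with phenformin (called the combination). Phenformin is a biguanide that inhibits respiratory complex I, and poly I:C, a synthetic mimic of viral double-stranded RNA, stimulates Toll-like receptor 3 and RNA sensors of the cytosol. There were 4 libraries per group, and 3 for 4T1 phenformin. The series title puts the question: what complex I inhibition together with Toll-like receptor activation does in the breast tumour microenvironment. Doses, times and the age of the mice are not given in the sources used here, and the replicates are not said to be separate animals, so p-values measure the spread between these libraries, which may in part be technical.

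In every library the title names one model while the tags for strain and cell line name the other, and groups follow the titles. H2-Ea-ps, an MHC class II gene copy whose expression differs between mouse haplotypes, stood at 222 to 1011 CPM (counts scaled by TMM-adjusted library size, in the unit of edgeR's cpm function) in the 15 libraries titled 4T1 and at 5.42 to 50.9 CPM in the 16 titled MT, so the titles separate 2 kinds of library without overlap. Some libraries stood apart from their groups. Acta1, a skeletal muscle actin, was above 10 CPM in 5 of the 4T1 libraries (poly I:C 2 and 3, phenformin 4, combination 1 and 4). Igkc, an immunoglobulin light chain, was above 100 CPM in 3 of the 4T1 libraries and in 7 of the MT libraries. In the MT model, Sox10 was above 10 CPM in 6 libraries, control 1 to 3 and phenformin 1 to 3, and in no library that received poly I:C. Total counts ran from 12160110 to 19849915 per library.

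Macrophages that reside in tissues take up glycoproteins, hyaluronan, haemoglobin and cell debris through a set of surface receptors, and interleukin-4 or interleukin-10 induces several of the genes. Mrc1 encodes the mannose receptor CD206, Cd163 the haemoglobin-haptoglobin scavenger receptor and Stab1 the scavenger receptor stabilin-1. Mgl2 and Clec10a encode the galactose-type C-type lectins MGL2 (CD301b) and MGL1 (CD301a), Lyve1 a hyaluronan receptor that lymphatic endothelium also makes, and Folr2 a folate receptor of resident macrophages. Retnla encodes the secreted protein RELMα and Ccl24 the chemokine eotaxin-2, both induced by interleukin-4 in macrophages. In a bulk library, fewer cells of a type and less RNA per cell cannot be told apart.

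Mgl2 and Clec10a are neighbours on chromosome 11 in GRCm38, where Mgl2 spans chr11:70130329-70137550 and Clec10a chr11:70156197-70170834, both on the plus strand with 18646 bases between them. They share part of their sequence: 12.2% of all 50-base windows of the annotated Mgl2 transcripts were also found in Clec10a transcripts, and 8.49% the other way. Some reads of either gene therefore could not be placed by sequence alone, while most windows differed. No such window was shared by Stab1 with Stab2, Folr2 with Folr1 or Retnla with Retnlg. The other genes lie apart: Mrc1 at chr2:14229392-14332057 (plus), Cd163 at chr6:124304656-124330527 (plus), Stab1 at chr14:31139013-31168641 (minus), Folr2 at chr7:101839988-101857194 (minus), Lyve1 at chr7:110850607-110863239 (minus), Retnla at chr16:48842551-48844461 (plus) and Ccl24 at chr5:135569937-135573049 (minus).

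RefSeq start sites (GRCm38.p6) gave a promoter window for 6 of the 9 genes. Shown are those of Mrc1, Mgl2 and Folr2, the genes that hold the motif marked here among those whose poly I:C response differed between the models. Each runs from 250 bases before the RefSeq start to the base before the first start annotated by GENCODE. Capitals mark AGGAAGT on either strand, the core of the site bound by PU.1, the ETS-family factor that macrophages depend on. The windows are chr2:14229164-14229391 (plus), chr11:70130107-70130328 (plus) and chr7:101857195-101857440 (minus).
Mrc1: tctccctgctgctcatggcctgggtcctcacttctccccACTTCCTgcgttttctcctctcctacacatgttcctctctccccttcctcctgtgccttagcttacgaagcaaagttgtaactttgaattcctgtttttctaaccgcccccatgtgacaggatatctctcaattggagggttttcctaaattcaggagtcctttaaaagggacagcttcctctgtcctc
Mgl2: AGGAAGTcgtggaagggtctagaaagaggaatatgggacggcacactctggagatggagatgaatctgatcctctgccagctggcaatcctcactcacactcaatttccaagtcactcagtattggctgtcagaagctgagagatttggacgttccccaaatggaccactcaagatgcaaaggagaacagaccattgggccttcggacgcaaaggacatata
Folr2: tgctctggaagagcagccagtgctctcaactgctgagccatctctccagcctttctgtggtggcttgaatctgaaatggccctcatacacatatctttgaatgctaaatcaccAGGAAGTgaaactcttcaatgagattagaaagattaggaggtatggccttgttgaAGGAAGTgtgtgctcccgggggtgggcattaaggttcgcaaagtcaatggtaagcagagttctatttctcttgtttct
The motif occurred in 4 of the 6 genes with a window (Mrc1, Mgl2, Folr2 and Retnla, with 2 matches in Folr2), and in 7.69% of all 32851 RefSeq windows of 250 bases. Cd163 and Stab1 held no match to it. Retnla alone also matched TTGCNNAA, the C/EBP site (9.56% of windows), and a second start of Folr2 matched TGANTCA, the AP-1 site (6.75%). Matches were sought on both strands and describe these letters only.

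In control tumours the 9 genes ranked differently in the 2 models (the plot of every gene in every library). Per kilobase of annotated exon, Mrc1 was the highest of the 9 in 4T1 control tumours at 34.5 CPM per kilobase, followed by Mgl2 at 12.3 and Stab1 at 9.68, and Clec10a was the lowest at 2.54. In MT control tumours Retnla had the highest mean at 12.8 CPM per kilobase, but was uneven at 2.48, 27.8, 3.13 and 17.9 (7.85 without control 2). Clec10a came next at a mean of 6.59 and was above Retnla in controls 1 and 3, while Mrc1 stood at 4.72, Stab1 at 1.65 and Cd163 was the lowest at 0.958. By these means, the receptor that led in one model was thus mid-ranked in the other, and the lectin that was last in 4T1 was near the top in MT.

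**Figure D1:**
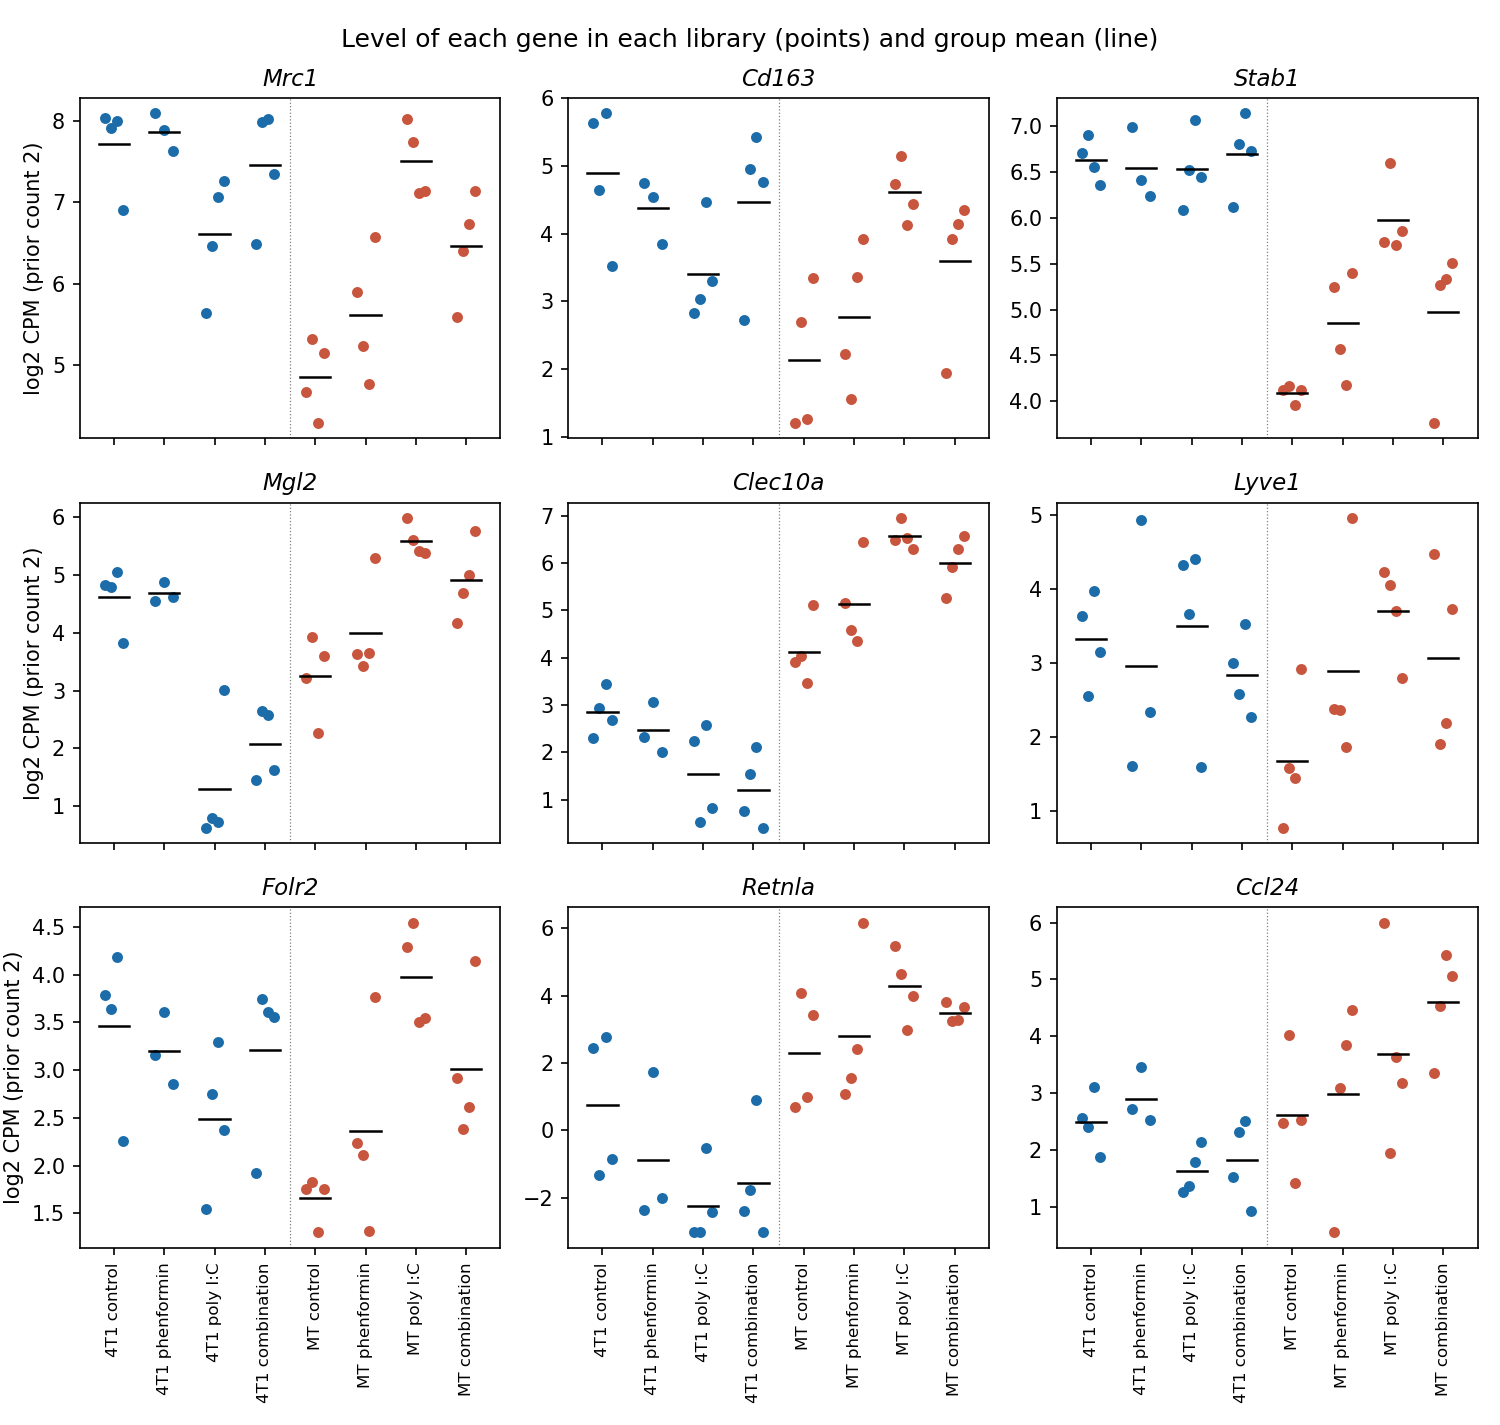
Level of each of the 9 genes in each library. The vertical axes give log2 CPM (prior count 2, each panel with its own range), the horizontal axes the 8 groups, points single libraries and lines group means, with 4T1 in blue and MT in red. With poly I:C the mean of 8 of the 9 genes lies below control in 4T1 and that of all 9 lies above control in MT, and Clec10a lies higher in every MT library than in any 4T1 library.

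Between control tumours, Mrc1, Cd163, Stab1, Folr2 and Mgl2 were higher in 4T1 than in MT and Clec10a was lower (edgeR, adjusted p under 0.05). These are 5 higher and 1 lower of 9, where 26.7% of all 18956 genes tested were called higher and 25.2% lower, so a call alone says little in this comparison. Mrc1 was at 262, 242, 255 and 119 CPM in the 4T1 control libraries 1 to 4, and at 25.4, 39.9, 19.5 and 35.5 CPM in the MT control libraries. The groups did not overlap, with a log2 difference of 2.87 ± 0.43 (SE, adjusted p = 4.55e-06). Stab1 was at 104, 119, 93.3 and 81.6 CPM in 4T1 and between 15.4 and 17.9 CPM in the 4 MT control libraries, a log2 difference of 2.55 ± 0.32 (adjusted p = 4.33e-07). Cd163 was higher by 2.76 ± 0.65 (adjusted p = 8.9e-04), Folr2 by 1.99 ± 0.51 (adjusted p = 0.00217) and Mgl2 by 1.33 ± 0.50 (adjusted p = 0.0276), all on the log2 scale. Mgl2 libraries of the 2 models overlapped, since 4T1 control 4 held 14.1 CPM and MT control 2 held 15.1 CPM. Clec10a went the other way: 4.84, 7.48, 10.8 and 6.34 CPM in 4T1 against 14.9, 16.2, 10.98 and 34.4 CPM in MT, a log2 difference of -1.37 ± 0.48 (adjusted p = 0.0193). The call of Mgl2 was lost without 4T1 control 1, 2 or 3 or MT control 1 or 3 (adjusted p up to 0.0912), and that of Clec10a without 4T1 control 1 or MT control 4 (up to 0.109, with a log2 difference of -0.93 without MT control 4). Retnla, Ccl24 and Lyve1 were not called, with log2 differences of -1.25, -0.36 and 1.55, and Lyve1 was called without MT control 4 (2.17, adjusted p = 0.0349). Without the MT libraries high in Sox10, MT control 4 alone stands for its group and the spread comes from the other groups. Mrc1 (2.64), Stab1 (2.53) and Clec10a (-2.22) were then called, and Mgl2 (1.10), Cd163 (1.81) and Folr2 (1.91) were not.

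Macrophage genes as a whole were also higher in 4T1 control tumours. Of 18 pan-macrophage genes 16 were called higher, and the summed level of that list ran from 4208 to 6741 CPM in 4T1 against 1006 to 1618 CPM in MT. Genes of other cells differed too: 11 of 11 blood endothelial and 11 of 13 fibroblast genes were called higher in 4T1. Calls went both ways for neutrophil genes (9 of 15 higher, 4 lower) and tumour epithelial genes (4 of 9 lower, 2 higher). The summed neutrophil level overlapped, at 296 to 705 CPM in 4T1 control and 132 to 2564 CPM in MT control. Blood endothelial genes, among cells that can make Stab1, summed to 444 to 612 CPM in 4T1 control and 165 to 265 CPM in MT control, and their part in the result was not tested. The comparison was also repeated with libraries scaled to 6 core macrophage genes (Csf1r, Adgre1, Mertk, Cd68, Fcgr1 and Aif1), which asks how each gene stood relative to those 6. This scaling moves the median of all genes by -1.70 on the log2 scale. Relative to the core genes, Mrc1 (log2 difference 1.12, adjusted p = 0.00206) and Stab1 (0.84, adjusted p = 0.00117) were still higher in 4T1, where 3.42% of genes were. Clec10a (-3.19, adjusted p = 7.96e-07), Retnla (-3.02, adjusted p = 0.0234) and Ccl24 (-2.12, adjusted p = 0.00823) were lower, as were 77.2% of genes. The direction of Mgl2 flipped to -0.44 and that of Lyve1 to -0.20, neither called.

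The ratio of the 2 lectin genes was above 1 in every 4T1 control, phenformin and combination library and below 1 in every MT library, while 4T1 tumours given poly I:C alone lay on both sides. Counts of Mgl2 per count of Clec10a were 2.23 to 5.84 in 4T1 control libraries and 3.54 to 6.29 in 4T1 phenformin libraries, so Mgl2 was the more abundant of the pair. In all 16 MT libraries Clec10a was the more abundant, with ratios from 0.347 to 0.936. In 4T1 tumours given poly I:C the ratios were 0.312, 1.23, 0.264 and 4.85, so poly I:C 1 and 3 lay below every MT library, and with the combination they were 1.39 to 2.48. The MT medians were 0.521 in control, 0.445 with phenformin, 0.496 with poly I:C and 0.449 with the combination. The models also differ in mouse strain, and how reads of the shared stretches were placed in each strain was not tested.

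**Figure D2:**
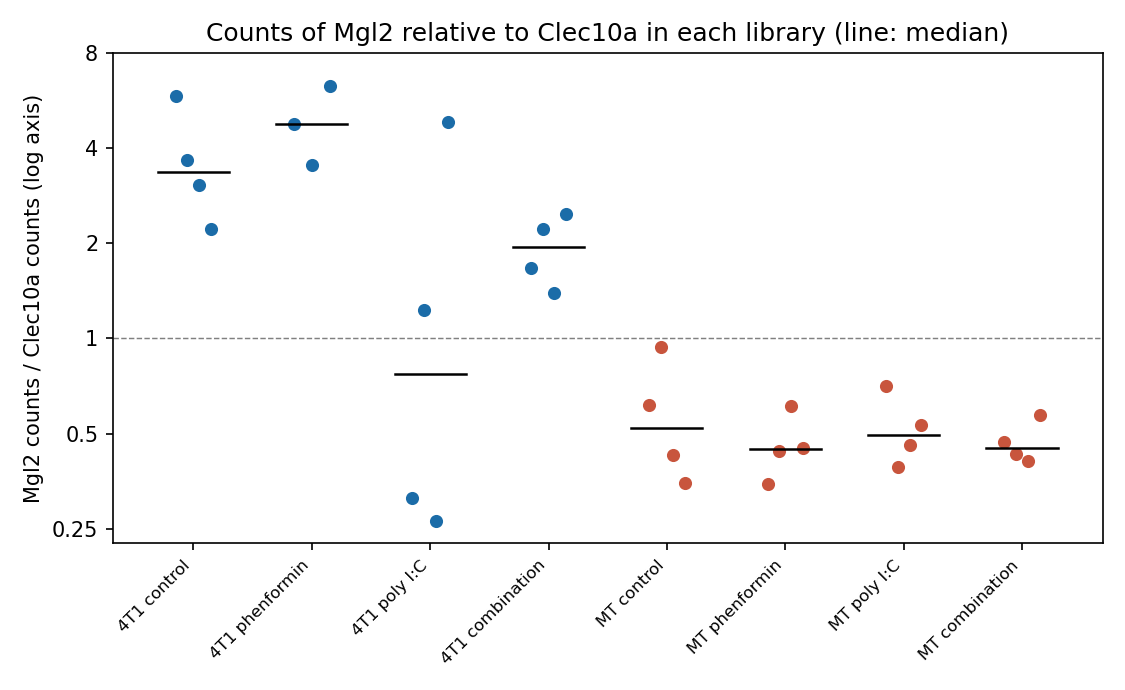
Counts of Mgl2 divided by counts of Clec10a in each library (vertical log axis, no unit) by group, with points for libraries and lines for group medians. All 16 MT libraries lie below 1, the 4T1 control and phenformin libraries lie above 2.2, and the 4T1 poly I:C libraries spread from 0.264 to 4.85.

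Poly I:C alone gave mostly negative log2 fold changes in 4T1, with 1 called, and positive ones in MT. In 4T1 tumours, Mgl2 fell and was the only one of the 9 to pass the test (1 lower of 9, with 3.06% of all 17445 genes called lower), although 7 of the 9 had an unadjusted p under 0.05, as had 4175 of all genes, and 8 had negative log2 fold changes. Mgl2 was at 28.3, 27.5, 33.1 and 14.1 CPM in control libraries 1 to 4 and at 1.43, 1.62, 1.53 and 7.94 CPM in poly I:C libraries, which are 24, 27, 24 and 126 counts. All 4 poly I:C libraries lay below all 4 controls, which held for 1 of the 9 genes and for 7.82% of all genes in that direction. The log2 fold change was -3.02 ± 0.51 (SE, adjusted p = 0.00951). Leaving out each library in turn gave -4.05 to -2.78, always called. Without the 5 libraries above 10 CPM of Acta1, which leaves poly I:C 1 and 4, it was -2.45 and not called (adjusted p = 0.183).

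The other receptors in 4T1 tumours shifted less than their spread allowed the test to call. Mrc1 was at 49.7, 88.3, 134 and 154 CPM with poly I:C against 262, 242, 255 and 119 CPM in control, a log2 fold change of -1.02 ± 0.37 (adjusted p = 0.11). The groups overlapped because control 4 was low. Cd163 was at 7.01, 8.06, 22.1 and 9.71 CPM with poly I:C against 49.4, 24.95, 54.7 and 11.4 CPM in control (-1.56 ± 0.56, adjusted p = 0.104). Here too control 4 lay among the poly I:C libraries. Clec10a (-1.12), Folr2 (-0.99) and Ccl24 (-0.88) had adjusted p of 0.154 to 0.196, and Lyve1 (0.44) and Stab1 (-0.05) were far from the threshold. Retnla had 0, 0, 9 and 1 counts in the poly I:C libraries and 100, 5, 126 and 7 in the controls, and its log2 fold change of -4.27 ± 1.56 (adjusted p = 0.113) rests on those few reads.

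In MT tumours, 6 of the 9 genes rose with poly I:C: Mrc1, Stab1, Clec10a, Mgl2, Folr2 and Cd163 (8.52% of all 17857 genes were called higher). The same 6 had every poly I:C library above every control library, as had 12.2% of all genes. Mrc1 was at 261, 214, 139 and 141 CPM with poly I:C, against 25.4, 39.9, 19.5 and 35.5 CPM in control. Its log2 fold change of 2.67 ± 0.42 (adjusted p = 0.00197) was the largest of the 9. Mean Mrc1 in these MT tumours, 189 ± 59.4 CPM (SD, n = 4), thus came near the 220 ± 67.3 CPM (SD, n = 4) of 4T1 control tumours. Stab1, the scavenger receptor, was at 53.1, 96.3, 51.9 and 57.9 CPM against 15.4 to 17.9 CPM (1.95 ± 0.35, adjusted p = 0.0035). Among the lectins, Clec10a was at 89.8, 124, 92.2 and 78.1 CPM against 14.9, 16.2, 10.98 and 34.4 CPM (2.35 ± 0.47, adjusted p = 0.00543). Mgl2 was at 63.3, 48.7, 42.4 and 41.5 CPM against 9.14, 15.1, 4.69 and 12.04 CPM (2.27 ± 0.48, adjusted p = 0.00673). Both lectins thus rose together.

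Folr2, the folate receptor, was at 19.4, 23.2, 11.2 and 11.6 CPM with poly I:C in MT and at 3.24, 3.43, 2.34 and 3.26 CPM in control (2.43 ± 0.52, adjusted p = 0.0075). Cd163 was at 26.6, 35.3, 17.3 and 21.6 CPM against 2.18, 6.38, 2.28 and 10.1 CPM (2.29 ± 0.64, adjusted p = 0.0234). Its call was lost when control 1, 2 or 3 or poly I:C 2 was left out, with the highest adjusted p at 0.0685. The 3 genes not called were the most uneven. Ccl24 was at 63.8 CPM in poly I:C 1 and at 3.75, 12.2 and 8.91 CPM in the other poly I:C libraries (1.59 ± 0.89, adjusted p = 0.215). Retnla (1.62 ± 1.05, adjusted p = 0.281) overlapped its controls of 1.49, 16.7, 1.88 and 10.7 CPM, and Lyve1 had a log2 fold change of 1.94 ± 0.78 (adjusted p = 0.0889), called without control 4 (2.56, adjusted p = 0.0327). The median log2 fold change of the 9 was 2.27, against 0.011 over all genes tested.

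**Figure D3:**
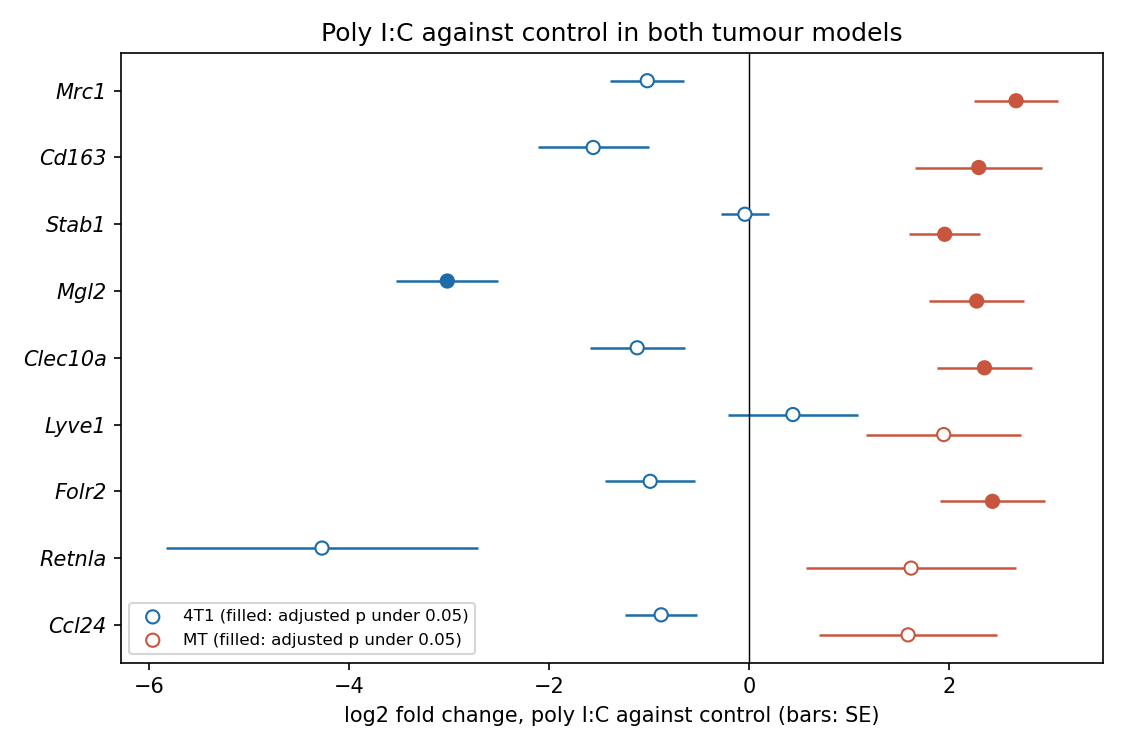
Log2 fold change of poly I:C against control (horizontal axis, bars SE) for the 9 genes, with 4T1 in blue and MT in red and filled points at an adjusted p under 0.05. In MT all 9 lie to the right of 0 and 6 are filled, and in 4T1 only Mgl2 at -3.02 is filled.

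The MT groups also differed in the levels of Sox10 and Krt5. Of the 9 tumour epithelial genes, which include both, 1 was called lower with poly I:C and 0 higher. Whether poly I:C itself brought about these levels was not tested. Control 1 to 3 had 173 to 218 CPM of Sox10, a transcription factor of neural crest and mammary progenitor cells, and 21.4 to 29.7 CPM of Krt5, a basal keratin. The 4 poly I:C libraries had 0.826 to 2.25 CPM of Sox10 and 1311 to 2452 CPM of Krt5. MT control 4 was like the poly I:C libraries in these 2 genes (1.30 CPM of Sox10, 2199 CPM of Krt5), and its 35.5 CPM of Mrc1, 17.3 CPM of Stab1 and 3.26 CPM of Folr2 lay within the range of the other controls. Its 34.4 CPM of Clec10a and 10.1 CPM of Cd163 were the highest of the controls. Without the 6 libraries above 10 CPM of Sox10, where control 4 alone stands for its group and is assumed to vary like the others, the log2 fold changes were 2.44 for Mrc1, 2.36 for Folr2, 2.05 for Mgl2, 1.93 for Stab1, 1.51 for Clec10a and 1.35 for Cd163, and none was called. With the Krt5 to Sox10 log2 ratio as covariate, Mrc1 (2.26, adjusted p = 0.0287) and Stab1 (1.88, adjusted p = 0.0343) were called and the other 7 were not. MT phenformin 4, which received no poly I:C, held 95.0 CPM of Mrc1, 87.2 CPM of Clec10a and 39.3 CPM of Mgl2. It had 2.59 CPM of Sox10, 1029 CPM of Krt5 and 3059 CPM of Igkc. MT phenformin 3 had 1611 CPM of Krt5 and 33.5 CPM of Sox10. Its 27.3 CPM of Mrc1, 20.5 CPM of Clec10a and 18.02 CPM of Stab1 were the lowest of its group.

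**Figure D4:**
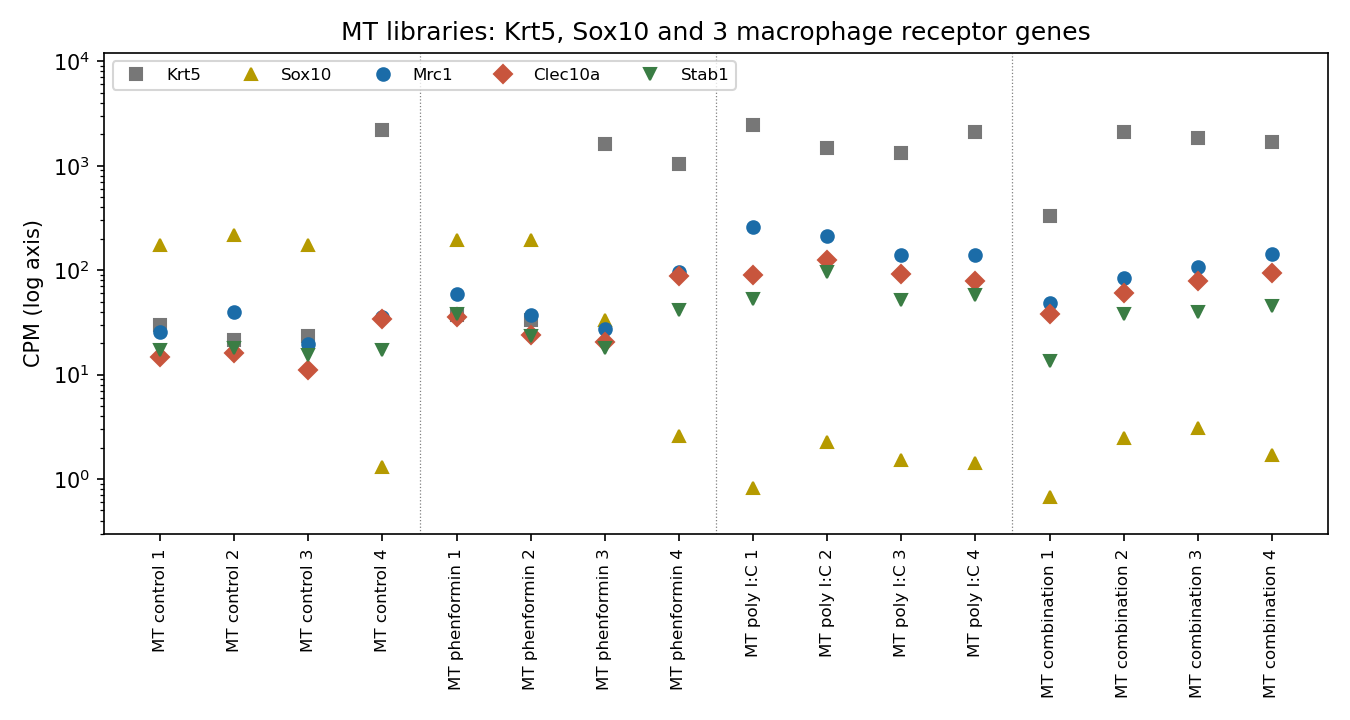
CPM (vertical log axis) of Krt5, Sox10, Mrc1, Clec10a and Stab1 in each of the 16 MT libraries (horizontal axis), some symbols lying over each other. Sox10 lies at 33.5 CPM or above in control 1 to 3 and phenformin 1 to 3 and at 3.06 CPM or below in the other 10 libraries. MT control 4 has low Sox10, with Mrc1 and Stab1 in the range of the other controls and Clec10a (34.4 CPM) above them.

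Other macrophage and stromal genes were called alongside the 9. In MT tumours 15 of 18 pan-macrophage genes rose with poly I:C, none fell, and their median log2 fold change was 1.44. Csf1r, the receptor for macrophage colony-stimulating factor, rose by 1.79 ± 0.21 (adjusted p = 8.98e-04). Of 21 other genes linked to resident macrophages 13 rose, among them the chemokine Ccl8 (2.33) and the ectoenzyme Cd38 (1.70), as did 15 of 16 other C-type lectins, among them the β-glucan receptor Clec7a (2.60). Of 18 genes of alternative activation 5 rose, such as the chitinase-like Chil3 (2.90), the receptor chain Il4ra (1.48) and the checkpoint ligand Pdcd1lg2 (2.55). Of 14 other scavenger receptor genes 7 rose, such as Cd36 (2.46), Olr1 (1.71) and Msr1 (1.41), and 1 fell, Scarb1 (-1.64, named after its values were seen). Blood endothelial genes rose in 10 of 11 cases, lymphatic endothelial genes in 4 of 8 and dendritic cell genes in 2 of 13 (Itgax and Clec9a). So did 10 of 15 neutrophil genes, 7 of 13 fibroblast genes and 3 of 4 eosinophil genes. Fibroblast genes summed to 1927 to 2373 CPM with poly I:C against 804 to 1334 CPM in control, while the summed neutrophil level overlapped (316 to 680 against 132 to 2564 CPM). Lymphatic markers summed to 179 to 211 CPM with poly I:C and 31.5 to 140 CPM in control, which bears on Lyve1 and Stab1, since endothelium can make both. Their part in the result was not tested.

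In 4T1 tumours the calls among pan-macrophage, other resident and alternative activation genes were all downward. With poly I:C, 8 of 18 pan-macrophage genes fell and none rose, with a median of -0.84. The complement genes C1qa (-1.12 ± 0.18, adjusted p = 0.00686) and C1qb (-1.21 ± 0.21, adjusted p = 0.0096) and the lipid carrier Apoe (-1.27 ± 0.19, adjusted p = 0.00538) had the smallest p. Of 22 other resident macrophage genes 4 fell, among them Cbr2 (-1.21), Selenop (-1.33) and, named after its values were seen, Cd209d (-3.54). Of 17 genes of alternative activation 2 fell, Pdcd1lg2 (-1.95) and the lipoxygenase Alox15 (-3.14). No scavenger receptor gene of 14 was called by edgeR, and of 15 C-type lectins 4 rose, among them Clec4d (1.85) and, named after its values were seen, Clec4e (1.73). Neutrophil genes rose in 5 of 15 cases (summed level 525.5 to 1631 CPM with poly I:C against 296 to 705 CPM in control) and fibroblast genes in 5 of 13 (5957 to 14580 against 3760 to 5740 CPM). Of 13 dendritic cell genes 1 fell and none rose, with a median log2 fold change of -0.53. That list summed to 92.45 to 260 CPM with poly I:C and to 148 to 227 CPM in control. The part of these cells in the changes was not tested. Of 10 lymphatic endothelial genes 2 rose, Pdpn (1.56) and Reln (3.02), and that list summed to 313 to 468 CPM with poly I:C against 242 to 309 CPM in control. Lyve1, which lymphatic vessels share, was at 20.02, 12.6, 21.2 and 2.90 CPM with poly I:C and at 12.3, 5.79, 15.6 and 8.76 CPM in control. The part of lymphatic vessels in its level was not tested. Skeletal muscle genes summed to 33.7 to 258 CPM with poly I:C and to 24.0 to 29.9 CPM in control, and eosinophil genes, 3 of 8 at 0 in all poly I:C libraries, to at most 2.77 CPM with poly I:C.

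The levels of the 6 core macrophage genes, as their geometric mean, were 74.1 ± 14.7 CPM (SD, n = 4) in 4T1 control and 45.04 ± 10.4 CPM (SD, n = 4) with poly I:C. In MT they were 22.4 ± 2.92 CPM (SD, n = 4) in control and 69.1 ± 11.1 CPM (SD, n = 4) with poly I:C. Scaling to them moves the median of all genes by 0.73 in 4T1 and by -1.62 in MT on the log2 scale, so what follows is relative to macrophage genes and not to all RNA. In 4T1, Mgl2 was lower also relative to the core genes (-2.36, adjusted p = 0.00211), as was Retnla (-3.71, adjusted p = 0.0315), where 0.344% of genes were called lower. Stab1 was higher relative to them (0.62, adjusted p = 0.0247), as were 55.7% of all genes. The log2 fold change of Mrc1 shrank to -0.39, that of Clec10a to -0.36 and that of Folr2 to -0.31. In MT, Mrc1 alone of the 9 was called relative to the core genes (1.02, adjusted p = 0.0107), where 0.314% of genes were called higher. Folr2 (0.76), Clec10a (0.63), Mgl2 (0.62), Cd163 (0.57) and Stab1 (0.27) stayed positive without a call, and Retnla stood at -0.01.

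**Figure D5:**
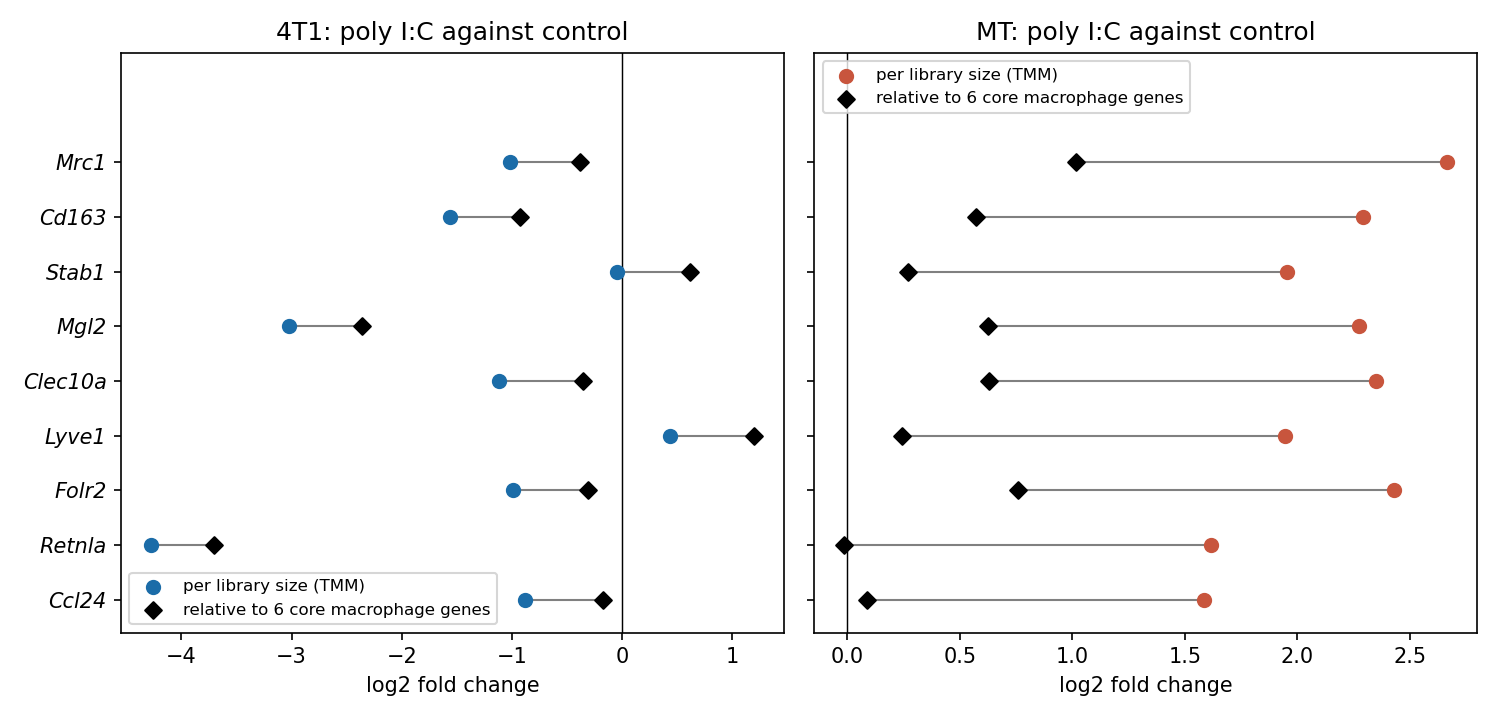
Log2 fold change of poly I:C against control for the 9 genes (horizontal axes, separate ranges) in 4T1 (left) and MT (right). Circles use library size and diamonds are relative to 6 core macrophage genes. The scaling carries the MT values toward 0, with Mrc1 at 1.02 the highest, while Mgl2 in 4T1 stays at -2.36.

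The difference between the models was itself tested, as the poly I:C response in 4T1 minus that in MT. Mrc1, Mgl2, Clec10a, Cd163, Folr2 and Stab1 had a lower response in 4T1 (6 of 9, with 5.42% of all 18956 genes called lower). Mgl2 differed most among the genes called, by -5.30 ± 0.74 (adjusted p = 7.26e-05). Mrc1 differed by -3.70 ± 0.58 (adjusted p = 2.47e-04), Cd163 by -3.86 ± 0.88 (adjusted p = 0.0065) and Clec10a by -3.47 ± 0.69 (adjusted p = 0.00239). Folr2 differed by -3.42 ± 0.72 (adjusted p = 0.00342) and Stab1 by -2.002 ± 0.44 (adjusted p = 0.00447). Retnla (-5.90 ± 1.95, adjusted p = 0.0501), Ccl24 (-2.48, adjusted p = 0.113) and Lyve1 (-1.51, adjusted p = 0.381) were not called. Scaling to the core macrophage genes moves the median of all genes by 2.36 in this comparison. On that scale Mgl2 (-2.98, adjusted p = 9.68e-05) and Mrc1 (-1.40, adjusted p = 0.00483) were called lower, where 0.142% of genes were. Stab1 stood at 0.35 and Lyve1 at 0.95, above 0 but below the median of all genes. Without the MT libraries high in Sox10, control 4 is the only MT control and is assumed to vary like the other groups. Mgl2 (-5.10, adjusted p = 0.0149) and Mrc1 (-3.50, adjusted p = 0.0298) were then called, and Folr2 (-3.38), Cd163 (-2.94), Clec10a (-2.66) and Stab1 (-2.008) were not. Retnla was called by DESeq2 on all libraries (-5.92, adjusted p = 0.0202). With edgeR it was called without 4T1 control 2 or 4, 4T1 poly I:C 3 or MT control 4. Its values were -5.25 to -8.45 over all single libraries left out.

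With phenformin alone, edgeR called none of the 9 genes and 0% of all genes in either model. In 4T1 none of the 9 had an unadjusted p under 0.05, as had 1753 of all 17445 genes, and DESeq2 called none. Mgl2 was at 23.4, 29.2 and 24.5 CPM in the 3 phenformin libraries, within the range of the controls, and Mrc1 at 273, 237 and 198 CPM. In MT, 4 of the 9 and 1084 of all 17857 genes had an unadjusted p under 0.05, and DESeq2 called none of the 9. Stab1 was at 37.9, 23.6, 18.02 and 42.0 CPM with phenformin, each above the 4 controls, and it was the only one of the 9 not to overlap in a direction that 0.935% of genes shared. Its log2 fold change was 0.86 ± 0.35 (adjusted p = 0.811), beside 1.16 ± 0.46 for Clec10a and 0.89 ± 0.40 for Mrc1. With single libraries left out, Clec10a ran from 0.491 to 1.595 and Mrc1 from 0.465 to 1.107. Phenformin 4 was the highest of its group in both, at 87.2 CPM of Clec10a and 95.0 CPM of Mrc1.

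With the combination, both lectins lay below control in every 4T1 library. Mgl2 was at 2.63, 6.15, 5.86 and 2.98 CPM, below every control and every phenformin library. Its log2 fold change against control was -2.54 ± 0.49 (adjusted p = 0.0815) and against phenformin -2.52 ± 0.52 (adjusted p = 0.176). Clec10a was at 1.58, 2.77, 4.22 and 1.202 CPM, also below every control (-1.58 ± 0.48, adjusted p = 0.192). These 2 of the 9 had no overlap with control, as had 4.67% of all genes. The 13 dendritic cell genes had a median log2 fold change of -1.51 against control, none called, and their part was not tested. edgeR called 0% of all genes for the combination against control in 4T1, none of the 9, although 2 of them and 2072 of all genes had an unadjusted p under 0.05, and DESeq2 called Mgl2 and Clec10a. The other receptors overlapped control in the combination: Mrc1 was at 89.7, 253, 261 and 163 CPM and Cd163 at 6.50, 30.9, 42.8 and 27.0 CPM, in each case with combination 1 lowest. Against poly I:C alone, edgeR called none of the 9 (0.246% of all genes in either direction; DESeq2 none). The log2 fold changes were 0.83 ± 0.37 for Mrc1 (unadjusted p = 0.0399, adjusted p = 0.235) and 1.18 ± 0.55 for Cd163 (adjusted p = 0.256). Mgl2 stood at 0.49 ± 0.51 (adjusted p = 0.618), and without poly I:C 4, the library with the most Mgl2 of its group, at 1.52 and called (adjusted p = 0.0229). Against phenformin, Ccl24 (-1.01, adjusted p = 0.334) and Mgl2 did not overlap, as did 6.68% of all genes in that direction. edgeR called none of the 9 and 0% of all genes there, 3 of the 9 and 2174 of all 17445 genes had an unadjusted p under 0.05, and DESeq2 called Mgl2.

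In MT tumours the combination mean of 8 of the 9 genes lay between control and poly I:C alone, and that of Ccl24 was above both. Mrc1, Mgl2 and Clec10a were called higher than in control (3 of 9, with 2.81% of all genes called higher), and these 3 and Folr2 did not overlap with control, as did 5.89% of all genes. Mrc1 was at 48.2, 84.6, 106 and 141 CPM (1.67 ± 0.40, adjusted p = 0.0362), Clec10a at 38.2, 59.9, 78.1 and 94.6 CPM (1.83 ± 0.46, adjusted p = 0.0406) and Mgl2 at 17.9, 25.7, 32.1 and 54.0 CPM (1.67 ± 0.47, adjusted p = 0.0498). Each of these calls was lost when combination 2, 3 or 4 or control 1, 2 or 3 was left out, and none was left relative to the core macrophage genes. Without the 7 libraries above 100 CPM of Igkc, combination 3 alone stands against control 1 to 3 and is assumed to vary like the others. The log2 fold changes were then 1.91 for Mrc1, 1.74 for Mgl2 and 2.48 for Clec10a, not called (adjusted p = 0.0807 to 0.0815). Cd163 was called without control 4 (1.98, adjusted p = 0.0393) and Stab1 without combination 1 (1.29, adjusted p = 0.0295). B and plasma cell genes summed to 63.0 to 16530 CPM with the combination and to 14.0 to 847 CPM in control, and 10 of 18 pan-macrophage genes rose as well, and the part of either in the result was not tested. Combination 1 was the lowest of its group for Mrc1, Clec10a, Mgl2, Cd163 and Stab1. Stab1 was at 13.5, 38.4, 40.2 and 45.4 CPM, all below the 51.9 to 96.3 CPM of poly I:C alone, as 2.51% of all genes were. That difference was -0.93 ± 0.34 (unadjusted p = 0.0167, adjusted p = 0.817), and Mrc1 differed by -1.002 ± 0.40 (adjusted p = 0.817). edgeR and DESeq2 called none of the 9 for the combination against poly I:C, where 2 of the 9 and 1076 of all 17857 genes had an unadjusted p under 0.05 and edgeR called 0% of all genes. Against phenformin, edgeR called none of the 9 and 0.106% of all genes, none of the 9 had an unadjusted p under 0.05, as had 2354 of all genes, and DESeq2 called none.

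The interaction asks whether phenformin acts differently in tumours given poly I:C. In MT all 9 values were negative, with a median of -1.79 against -0.04 over all genes. Mrc1 (-1.89 ± 0.56, adjusted p = 0.385) and Stab1 (-1.79 ± 0.49, adjusted p = 0.385) had the smallest p, 5 of the 9 and 1769 of all 17857 genes had an unadjusted p under 0.05, and edgeR called 0% of all genes and DESeq2 none of the 9. In 4T1 Cd163 had an interaction of 1.91 ± 0.81 (unadjusted p = 0.0334, adjusted p = 0.518), the only one of the 9 with an unadjusted p under 0.05, as had 1628 of all 17445 genes, and again edgeR and DESeq2 called none. The comparisons of a model share libraries, so these values are not independent of each other.

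Across libraries, 28 of the 36 pairs of the 9 genes had the higher correlation in MT and 7 in 4T1, and 6 of the 8 pairs with Ccl24 were among the 7. In the 16 MT libraries, Pearson's r of log2 CPM was 0.959 for Mrc1 with Mgl2, 0.944 for Mrc1 with Clec10a and 0.941 for Mgl2 with Clec10a, and every pair was positive (lowest 0.221, Ccl24 with Stab1). In the 15 4T1 libraries, Cd163 with Folr2 had 0.93 (0.748 in MT), Mgl2 with Ccl24 0.836 (0.62 in MT) and Mrc1 with Folr2 0.854 (0.93 in MT), but Mgl2 with Stab1 had 0.085, and Lyve1 with Mrc1 -0.244. These libraries share treatments and the shifts in macrophage genes, so the values only describe them. With the mean of each model removed, the genes of the table most like each member over all 31 libraries included Fcgrt (r = 0.933) for Mrc1, Fcna (0.938) for Folr2, Abca9 (0.903) and Naaa (0.894) for Mgl2, Tmem8 (0.902) for Clec10a, Scamp5 (0.893) and Pltp (0.875) for Cd163, and Itgam (0.918) for Stab1. Retnla was most like Cd163 (0.706) and Ccl24 like Mfsd5 (0.746). Lyve1 followed the fibroblast-expressed genes Cxcl12 (0.86), Dpt (0.851) and Dcn (0.848).

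Ordered by group mean, Mrc1 ran from 236 CPM in 4T1 phenformin, through 220 in 4T1 control, 192 in the 4T1 combination and 189 in MT poly I:C, to 107 in 4T1 poly I:C, 95.1 in the MT combination, 54.9 in MT phenformin and 30.1 in MT control, with each neighbour in that order overlapping the next. Stab1 kept all 4 4T1 groups on top (94.9 to 107 CPM). MT poly I:C (64.8 CPM) did not overlap with the MT combination (34.4 CPM), nor MT phenformin (30.4 CPM) with MT control (17.0 CPM). Clec10a instead had the 4 MT groups on top, at 96.0, 67.7, 41.8 and 19.1 CPM, with none of their libraries as low as the highest 4T1 library. Mgl2 ran from 49.0 CPM in MT poly I:C to 4.41 in the 4T1 combination and 3.13 in 4T1 poly I:C. Cd163 was highest in 4T1 control (35.1 CPM) and lowest in MT control (5.23 CPM), and Folr2 ran from 16.4 CPM in MT poly I:C to 3.07 CPM in MT control. Lyve1 ran from 14.2 to 3.64 CPM, Ccl24 from 27.4 to 3.08 CPM and Retnla from 23.3 to 0.160 CPM, with neighbouring groups overlapping throughout for all 3.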

How the data were processed

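Messenger RNA of 31 mouse tumour libraries was sequenced from strand-specific poly(A) libraries, with RNA from cell pellets or frozen tissue, per the labels. Per the submitters' processing notes, the authors used Trimmomatic 0.32.48, STAR 2.3.0 and featureCounts 1.4.4 with the mouse build mm10 (GRCm38). The deposited table gives gene-level read counts, as whole numbers without normalization. The annotation release and the strand setting of the counting are not given in the sources used here. Libraries held 12160110 to 19849915 counts, and counts of libraries in the same group differed beyond sampling noise.

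Genes were tested with edgeR 4.0.16 in R 4.3.3 (filterByExpr with a minimum count of 10 and a minimum total of 15, TMM scaling, quasi-likelihood F-test), with 1 fit per model and 1 joint fit for differences between models. A call is a Benjamini-Hochberg adjusted p under 0.05 over all genes tested. The scripts were tested on simulated data. CPM use TMM-scaled library sizes over all 31 libraries, and log2 CPM a prior count of 2. The interaction is the log2 effect of poly I:C on a phenformin background less its effect without phenformin. Same-numbered libraries were not treated as pairs, since their deviations correlated from -0.786 to 0.769, with every pair over 0.1 in 0 of 10 comparisons. Alternatives were DESeq2 1.42.0, its size factors within edgeR, other filters, a replicate block, only the groups compared, single libraries left out, scaling to 6 macrophage genes and, chosen after seeing the data, libraries high in Acta1, Igkc or Sox10 left out and a Krt5 to Sox10 covariate. The 9 genes and the gene lists were chosen with earlier results of these data known. In each list, the 3 called genes with the smallest p were those to be named, and for each of the 9 genes up to 3 with the highest r among genes averaging 1 or more in log2 CPM. A few genes that the naming rule picks are not reported here.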

Additional observations from a re-analysis of the deposited data

Results flagged for a closer look

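Of 63 combinations of gene and group of 4 libraries, 10 held a library far from the other 3 by Dixon's test on CPM. Chance flags about 1 in 20 only where values are normal, which CPM need not be. The combinations also share libraries, so the count does not show an excess. MT phenformin 4 accounts for 3 of them, the highest of its group in Mgl2 (39.3 CPM), Retnla (71.8 CPM) and Lyve1 (31.01 CPM). In MT poly I:C, library 1 stood out in Ccl24 (63.8 CPM) and library 2 in Stab1 (96.3 CPM). In MT control, library 3 was lowest in Folr2 (2.34 CPM).

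In the 4T1 model, control 4 was lowest in Mrc1 (119 CPM) and poly I:C 4 highest in Mgl2 (7.94 CPM). Retnla stood out in poly I:C 3 (0.575 CPM) and combination 3 (1.77 CPM), each the highest of a group near 0.

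The poly I:C response differed between the models in 6 of the 9 genes, as 4T1 minus MT on the log2 scale: Mgl2 by -5.30, Cd163 by -3.86, Mrc1 by -3.70, Clec10a by -3.47, Folr2 by -3.42 and Stab1 by -2.002.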

How the results depend on the processing

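The count of the 9 genes called for poly I:C against control in 4T1 was 1, and it was 3 scaled to the macrophage core genes and 0 without libraries above 10 CPM of Acta1. For the combination in 4T1, DESeq2 called 2 against control and 1 against phenformin, and a fit of only the groups compared called 1 in each, where the main count was 0. In MT, the 6 calls for poly I:C became 2 with the Krt5 to Sox10 covariate and 1 scaled to the core genes. DESeq2 called the same 6 and also Lyve1 (adjusted p = 0.0349). Without libraries high in Igkc, where combination 3 alone stands for its group, the log2 fold changes of the 6 were 2.16 to 3.13. Without libraries high in Sox10, where control 4 alone stands for its group, they were 1.35 to 2.44. The 3 calls for the MT combination against control became 5 with DESeq2, 1 with no filter, and 0 with the covariate, with only the groups compared, with core scaling, without libraries high in Sox10 (control 4 alone in its group) and without those high in Igkc (combination 3 alone). Between control tumours the 6 calls became 3 without MT libraries high in Sox10, and for the difference in poly I:C response 6 became 2 both with core scaling and without those libraries. The cause was not tested, except that leaving out libraries leaves fewer samples.

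Leaving out 1 library at a time gave counts of 5 to 7 for MT poly I:C, 0 to 4 for the MT combination against control, 4 to 6 between control tumours, 6 to 7 for the difference in response, 1 in every case for 4T1 poly I:C and 0 to 1 for the 4T1 combination against poly I:C. The other comparisons stayed at 0.

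Signs changed as follows on the log2 scale. Core scaling shifts all genes of a comparison together, moving the median of all genes by 0.73 in 4T1 poly I:C, -1.62 in MT poly I:C, -0.96 in the MT combination, -0.555 in the 4T1 combination against poly I:C, -1.70 between control tumours and 2.36 in the difference of responses. With it the sign changed for Stab1 in 4T1 poly I:C (0.62), Retnla in MT poly I:C (-0.014) and the MT combination (-0.43), Stab1 in the MT combination (-0.11), Mgl2 in the 4T1 combination against poly I:C (-0.029), Mgl2 (-0.44) and Lyve1 (-0.20) between control tumours, and Lyve1 (0.95) and Stab1 (0.35) in the difference of responses. With the covariate, Retnla stood at -1.10 in MT poly I:C and at -1.88 in the MT combination. Stab1 in 4T1 poly I:C was 0.002 without libraries high in Igkc and -0.26 to 0.10 with single libraries left out (0.06 without control 2). Ccl24 between control tumours was 0.045 without MT libraries high in Sox10 and -0.65 to 0.35 with single libraries left out.

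With the replicate block, the calls were 1 for 4T1 poly I:C, 7 for MT poly I:C, 2 for the MT combination against control, 6 between control tumours, 6 for the difference in response and 0 elsewhere. Depth limits Retnla most, with 0 to 9 counts in the 4T1 poly I:C libraries.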
